A study of Mus musculus with 2 samples.

Results

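The genes described were 10 transcription factors of the oligodendrocyte (OL) lineage, Olig1, Olig2, Sox10, Sox8, Nkx2-2, Nkx6-2, Myrf, Tcf7l2, Zfp488 and St18, chosen by symbol out of the 55450 genes that the deposited tables list. Their transcripts were counted in single-cell RNA sequencing of mouse cerebral cortex, in which each molecule carries a unique molecular identifier (UMI) and each cell a barcode. One library came from a Control group and 1 from a group with cerebral white matter injury (WMI), both of C57BL/6 mice that the labels describe as 2 weeks old. By the labels, the right common carotid artery of the WMI group had been ligated on postnatal day 7 with 1 h of hypoxia. The ligated cortex was taken on postnatal day 14, also by the labels. The labels of the Control library carry the same treatment text, and its group came from the label Control. Control tissue was ipsilateral cortex of control animals by the labels, whereas the study's results describe the opposite side. The study's methods give younger animals, a longer hypoxia and dissociated cells, where the labels give nuclei, and neither version was assumed here. The study states 4 replicates in each group. Since only a single library of each was at hand, no difference between the libraries has a replicate check, and every interval given covers counting error only.

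These factors act in sequence in the background biology of the lineage. Olig1 and Olig2 are basic helix-loop-helix proteins that specify the lineage, Sox10 and Sox8 are related SoxE proteins that keep its identity, and Nkx2-2, Tcf7l2, Zfp488, Myrf, St18 and Nkx6-2 are linked to leaving the precursor state, to the start of myelin gene transcription or to maturation. Oligodendrocyte precursor cells (OPCs) divide and carry Pdgfra, premyelinating cells (pre-OLs) carry Bcas1 and Enpp6, and mature OLs carry myelin genes such as Mog and Mobp.

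The Control library held 10288 barcodes and 66470806 UMIs, and the WMI library 8354 barcodes and 60568639 UMIs. After filters 8755 and 7571 cells were kept, of which 582 and 977 were of the OL lineage. The libraries differed in more than the injury. The median mitochondrial share of kept cells was 0.0619% in Control and 0.448% in WMI, 5 Control and 4776 WMI cells held UMIs of Xist, the RNA of the inactive X chromosome, and 36 barcode sequences occurred in both libraries. Stages were named from marker genes that did not include the 10 factors, which were also left out of the features used for clustering. There were 342 Control and 494 WMI OPC-like cells, 149 and 440 pre-OL-like cells, and 91 and 43 mature OL-like cells. Median depths were 4935 and 4339 UMIs per OPC-like cell, 5131 and 4821.5 per pre-OL-like cell, and 8102 and 8602 per mature OL-like cell. A class holds RNA captured per droplet, and free RNA from other cells could be among it. The 10 microglia markers, which OL cells should lack, summed to 179 CPM (UMIs per 1000000 UMIs of the class) in Control and 570 in WMI OPC-like cells, 153 and 520 in pre-OL-like cells, and 136 and 316 in mature OL-like cells. The 10 astrocyte markers summed to 438 and 503, 175 and 228, and 160 and 121 in the same order. None of the microglia markers was at 0 apart from 1 in WMI mature OL-like cells, and the part of such RNA in the results was not tested.

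The files carry no coordinates. All 55450 gene identifiers matched GENCODE M21 on GRCm38, whereas the labels name mm9, so positions are given on GRCm38. Olig2 (ENSMUSG00000039830) lies at chr16:91225457-91228677 and Olig1 (ENSMUSG00000046160) at chr16:91269772-91271933, both on the + strand and 41095 bp apart. Sox10 (ENSMUSG00000033006) lies at chr15:79154908-79165240 and Sox8 (ENSMUSG00000024176) at chr17:25565892-25570686, both on the - strand. Nkx2-2 (ENSMUSG00000027434) occupies chr2:147177546-147194243 and Nkx6-2 (ENSMUSG00000041309) chr7:139579376-139582797, both on the - strand. Myrf (ENSMUSG00000036098) is at chr19:10208272-10240748 on the - strand and Zfp488 (ENSMUSG00000044519) at chr14:33967070-33978764 on the - strand. Tcf7l2 (ENSMUSG00000024985) is at chr19:55741820-55933654 and St18 (ENSMUSG00000033740) at chr1:6487231-6860940, both on the + strand.

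Other annotated genes overlap 5 of the factors. Nkx2-2 is crossed by the antisense gene Nkx2-2os, Sox8 meets the antisense gene 2810468N07Rik, Nkx6-2 meets the end of Inpp5a, Olig1 meets Gm15966, and Ppnr lies within Tcf7l2. A further antisense gene, 6430503K07Rik, lies over Nkx2-2. Whether counting used the strand is not given in the sources used here, so a factor and its antisense gene may share reads.

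Promoters of 6 of the 10 factors were in the RefSeq table for GRCm38.p6. The Tcf7l2 entry has 2 windows. Shown is a window each for the factors that were at least 2-fold higher in pre-OL-like than in OPC-like cells of both libraries and whose windows overlap no annotated untranslated region. Each runs from 250 to 11 bases before the transcript start, 5′ to 3′ on the gene's strand. The windows are chr19:55741560-55741799 for Tcf7l2, chr2:147186413-147186652 for Nkx2-2 and chr14:33978775-33979014 for Zfp488. Capitals mark matches to the motifs searched on both strands, so that a match on the reverse strand appears as its reverse complement.
Tcf7l2: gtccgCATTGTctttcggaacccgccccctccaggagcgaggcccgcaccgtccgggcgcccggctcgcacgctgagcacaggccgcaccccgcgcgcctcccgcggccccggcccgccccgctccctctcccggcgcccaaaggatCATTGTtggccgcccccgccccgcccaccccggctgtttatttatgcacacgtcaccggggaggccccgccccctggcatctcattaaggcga
Nkx2-2: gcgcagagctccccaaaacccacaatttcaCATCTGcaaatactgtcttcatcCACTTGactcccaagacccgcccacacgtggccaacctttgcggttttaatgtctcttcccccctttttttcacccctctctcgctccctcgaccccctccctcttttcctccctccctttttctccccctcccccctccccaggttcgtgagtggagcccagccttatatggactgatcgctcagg
Zfp488: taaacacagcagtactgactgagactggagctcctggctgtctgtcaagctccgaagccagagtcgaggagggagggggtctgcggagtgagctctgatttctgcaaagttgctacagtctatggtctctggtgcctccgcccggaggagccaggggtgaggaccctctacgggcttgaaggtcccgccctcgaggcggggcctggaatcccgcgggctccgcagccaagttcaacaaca
The 6 motifs searched were chosen from the families to which the factors belong, with the TATA box as a general element. The Olig-type E-box was read as CATATG or its variant CAGATG. For Sox proteins the core letters were ACAAAG, with ACAATG as the other accepted form. For Tcf and Lef proteins they were CTTTGA, with CTTTGT as the other accepted form, and this second one is the reverse complement of the first Sox form, so that these motifs overlap. For Nkx2 proteins they were CACTTA, with CACTTG as the other accepted form. For Myrf they were CTGGCAC, with CTGGTAC as the other accepted form, and the TATA box was read as TATAAA. The Tcf7l2 window held the Sox core ACAATG on the reverse strand at positions -245 and -103 from the start. The Nkx2-2 window held CAGATG on the reverse strand at -220 and CACTTG at -197. The Zfp488 window held none of these letters. The second Tcf7l2 window, chr19:55895071-55895310, is not shown, since no annotated transcript was found to hold the bases after its start, and it held TATAAA on the reverse strand at -242. Of 32851 promoter windows of the same length, 24.6% held a Sox core, 16.9% the Olig-type E-box, 17.9% an Nkx2 core, 26.9% a Tcf/Lef core, 5.69% a Myrf core and 12.1% a TATA box, so that each match is common.

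Each of the 10 factors had a higher level in OL-lineage cells than in all other kept cells in both libraries, where a level is given in CPM. The ratio differed widely among them. It was 42.0-fold in Control and 32.4-fold in WMI for St18, 37.8-fold and 23.3-fold for Sox10, and 31.6-fold and 21.1-fold for Myrf. It was 3.43-fold and 5.03-fold for Olig1 and 5.88-fold and 7.05-fold for Olig2. Only 18.8% of Control and 35.0% of WMI Olig1 UMIs came from OL-lineage cells, against 71.8% and 71.3% of Sox10 UMIs. The other kept cells include 3 clusters that stayed unnamed, with 3612 Control and 1227 WMI cells. Those clusters held 255 of the 519 Control and 118 of the 541 WMI Olig1 UMIs outside the lineage. Such shares and ratios therefore mix cell classes in proportions that differ between the libraries. The map of levels by class has the highest level of each of the 10 factors in a stage of the lineage in both libraries. The interval of endothelial-like cells, which held few UMIs, overlapped that of the top stage for Olig1, Olig2, Nkx6-2 and Zfp488 in both libraries. In Control the intervals of fibroblast-like and neuroblast-like cells did so for Olig1 and Olig2. That of the Control unnamed clusters did so for Olig1, at 22.8 to 29.3 against 28.1 to 58.7. Not every stage lay above the other classes. St18 in OPC-like cells, at 30.2 and 44.7 CPM, was below microglia-like cells at 48.3 and 68.1, and Nkx2-2 in mature OL-like cells, at 6.67 and 9.50, was below astrocyte-like cells at 8.60 and 13.7.

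**Figure D1:**
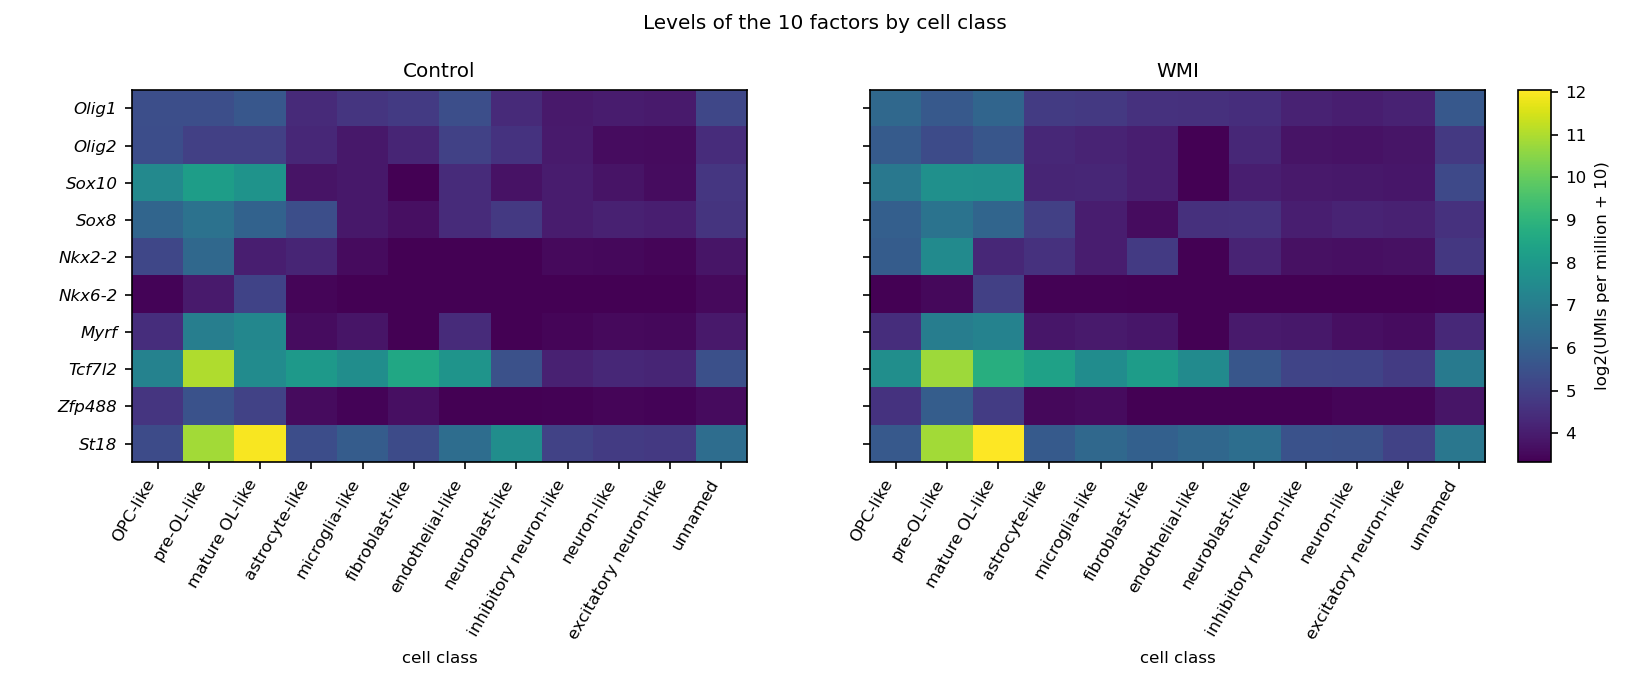
Levels of the 10 factors (rows) in 12 cell classes (columns) of the Control and WMI libraries, as log2(CPM + 10) in colour. St18 reaches 3967 and 4246 CPM in mature OL-like cells, and Tcf7l2 lies between 170 and 362 CPM in astrocyte-like, microglia-like, fibroblast-like and endothelial-like cells of both libraries.

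The pair that specifies the lineage stayed within 2-fold between the 3 stages. In WMI, Olig1 and Olig2 were both lower in pre-OL-like than in OPC-like cells, each at a log2 ratio of -0.63. Olig1 had 32.3 CPM in Control OPC-like cells (95% interval 24.7 to 41.6), 32.8 (22.0 to 47.1) in pre-OL-like cells and 41.4 (28.1 to 58.7) in mature OL-like cells. In WMI it had 68.1 (58.0 to 79.5), 44.0 (36.02 to 53.3) and 61.7 (40.3 to 90.5). The 3 Control intervals overlap, and in WMI the OPC-like level lay above the pre-OL-like one. Olig2 had 31.8 (24.2 to 41.0), 21.5 (12.9 to 33.6) and 21.4 (12.2 to 34.7) in Control and 46.8 (38.5 to 56.4), 30.2 (23.6 to 38.0) and 40.4 (23.5 to 64.6) in WMI. In each library OPC-like cells had the top Olig2 level. Its Control interval overlaps those of both other stages, whereas in WMI it lies above that of pre-OL-like cells and overlaps that of mature OL-like cells. In the unnamed clusters, whose cells had median depths of 2816 and 2012 UMIs, Olig1 stood at 25.9 in Control and 42.9 in WMI. The libraries differ in which of these clusters hold most of their cells.

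Sox10, which maintains OL identity from precursor to mature cell, was highest in pre-OL-like cells of Control. In WMI its pre-OL-like and mature OL-like levels were near equal, with intervals that overlap. Control levels were 162 (144 to 182) in OPC-like, 284 (250 to 322) in pre-OL-like and 212 (181 to 248) in mature OL-like cells. WMI levels were 104 (91.2 to 118), 198 (181 to 217) and 195 (155 to 242). The OPC-like level was the lowest in both libraries, and its interval did not overlap that of pre-OL-like cells. Sox8, its relative, had 61.4 (50.7 to 73.8), 87.2 (68.8 to 109) and 57.4 (41.5 to 77.3) in Control and 51.9 (43.1 to 62.0), 91.4 (79.7 to 104) and 61.7 (40.3 to 90.5) in WMI. Sox8 was 1.42-fold higher in Control and 1.76-fold higher in WMI pre-OL-like than in OPC-like cells, under the 2-fold used for stages, and with early pre-OL-like cells counted as OPC-like the log2 ratios were -0.09 and 0.09. The antisense gene 2810468N07Rik had 245 UMIs in lineage cells against 600 of Sox8 and was highest in mature OL-like cells, at 52.1 in Control and 54.6 in WMI.

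Nkx2-2, a homeodomain factor that represses precursor genes at the onset of differentiation, had its highest level in pre-OL-like cells. It had 25.9 (19.1 to 34.3) in Control OPC-like cells, 66.8 (50.8 to 86.1) in pre-OL-like cells and 6.67 (2.17 to 15.6) in mature OL-like cells. In WMI it had 48.5 (40.02 to 58.3), 169 (153 to 187) and 9.50 (2.59 to 24.3). Pre-OL-like cells were 2.58-fold above OPC-like cells in Control and 3.49-fold in WMI, and mature OL-like cells were 10.0-fold and 17.8-fold below pre-OL-like cells. Counting early pre-OL-like cells (a sub-cluster of that stage) as OPC-like turned the Control log2 ratio of pre-OL-like to OPC-like cells from 1.37 to -0.24 and took that of WMI from 1.80 to 0.50, under 2-fold. The antisense gene was also higher in pre-OL-like than in OPC-like cells, but highest in mature OL-like cells. Nkx2-2os had 55.0 in Control OPC-like, 117 in pre-OL-like and 303 in mature OL-like cells, and 55.3, 92.3 and 370 in WMI. With 938 UMIs it exceeded the 634 of Nkx2-2 in lineage cells. In mature OL-like cells 227 Control and 156 WMI UMIs were of Nkx2-2os against 5 and 4 of Nkx2-2.

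**Figure D2:**
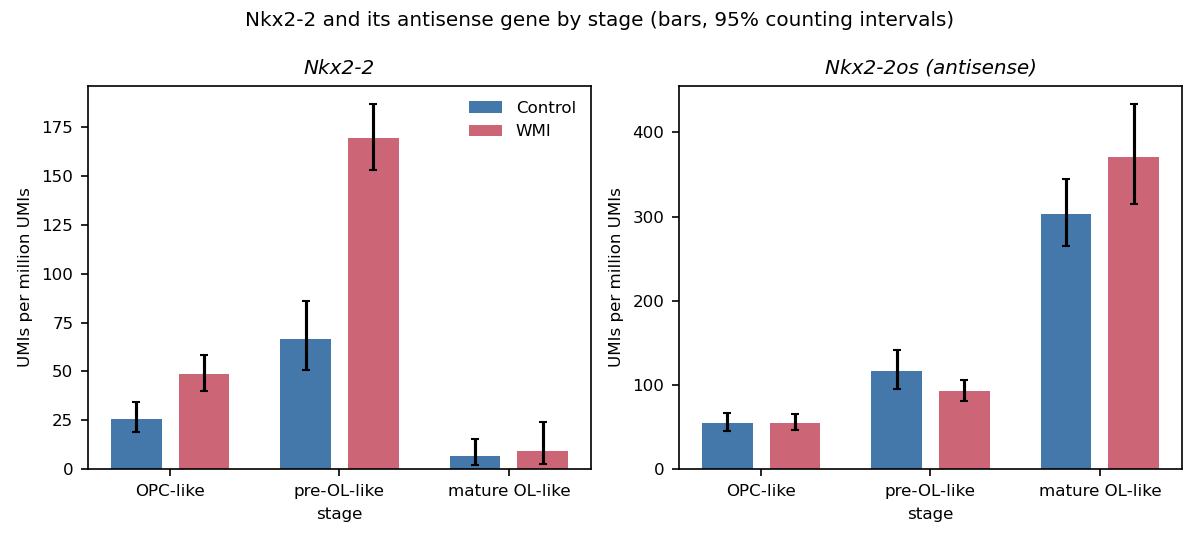
Levels of Nkx2-2 and of the antisense gene Nkx2-2os (CPM, bars from 0) by stage in the Control and WMI libraries, with exact Poisson 95% intervals. Nkx2-2 peaks at 66.8 and 169 in pre-OL-like cells, while Nkx2-2os is highest in mature OL-like cells at 303 and 370.

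Tcf7l2, a factor that binds beta-catenin and is known as a marker of newly forming OLs, was highest in pre-OL-like cells. It had 137 (121 to 155) in Control OPC-like cells, 2076 (1982 to 2173) in pre-OL-like cells and 178 (149 to 210) in mature OL-like cells. In WMI the values were 190 (173 to 209), 1758 (1706 to 1812) and 435 (374 to 502). Pre-OL-like cells were 15.1-fold and 9.24-fold above OPC-like cells, and mature OL-like cells were 11.7-fold and 4.05-fold below pre-OL-like cells. In cells thinned to 1000 UMIs each, 68.5% (60.3 to 75.8) of Control and 65.2% (60.6 to 69.7) of WMI pre-OL-like cells held a Tcf7l2 UMI, against 0.802% and 2.52% of excitatory neuron-like cells. Without thinning these shares were 89.3% and 91.4%. Median depths of those neurons were 9806 and 9692.5 UMIs.

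Zfp488, a zinc-finger partner of Olig2, was higher in pre-OL-like cells on fewer counts. It had 15.6 (10.5 to 22.4), 36.2 (24.8 to 51.1) and 22.7 (13.2 to 36.3) in Control and 14.0 (9.67 to 19.7), 49.9 (41.4 to 59.7) and 19.0 (8.20 to 37.4) in WMI from OPC-like to mature OL-like cells. The pre-OL-like level was 2.32-fold and 3.55-fold above the OPC-like one.

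Myrf, the membrane-bound factor that is cleaved to activate myelin genes, was low in precursors and high in both later stages. It had 11.9 (7.43 to 17.9), 123 (101 to 149) and 155 (128 to 186) in Control and 12.3 (8.27 to 17.7), 120 (106 to 134) and 138 (105 to 178) in WMI. Pre-OL-like cells were 10.4-fold and 9.69-fold above OPC-like cells, and the intervals of the later stages overlap in both libraries. St18, a zinc-finger factor of the Myt1 family, was higher at each stage than at the one before, from 30.2 (22.8 to 39.2) to 1824 (1736 to 1915) to 3967 (3825 to 4112) in Control and from 44.7 (36.6 to 54.1) to 1823 (1769 to 1878) to 4246 (4052 to 4448) in WMI. These are 60.4-fold and 40.8-fold steps to the pre-OL-like stage and 2.18-fold and 2.33-fold steps to the mature stage. With early pre-OL-like cells counted as OPC-like, the log2 ratio of the St18 step to the pre-OL-like stage went from 5.92 to 4.29 in Control. In WMI it went from 5.35 to 2.85. Of thinned mature OL-like cells, 94.5% in Control and 97.7% in WMI held a St18 UMI, against 2.00% and 3.00% of excitatory neuron-like cells.

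Nkx6-2, a homeodomain factor of late maturation, had few UMIs. Mature OL-like cells held 18 of its 24 lineage UMIs in Control and 9 of 12 in WMI, or 24.0 (14.2 to 37.97) and 21.4 (9.77 to 40.6) CPM. Pre-OL-like cells held 5 and 3 UMIs and OPC-like cells 1 and 0, where a count of 0 in WMI allows up to 1.28 CPM. It had under 50 UMIs in every comparison of stages or libraries and entered none.

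Counted over the 10 factors, 9 had the 50 UMIs required to compare the earlier 2 stages. Nkx2-2, Myrf, Tcf7l2, Zfp488 and St18 were at least 2-fold higher in pre-OL-like cells, 5 in Control where 6.80% of 6984 genes were, and the same 5 in WMI where 5.98% of 9283 were. None was at least 2-fold lower, against 9.25% and 7.53% of genes. Between pre-OL-like and mature OL-like cells 7 factors could be compared in Control and 9 in WMI. St18 was at least 2-fold higher in mature OL-like cells in both, where 10.6% of 4913 Control and 8.39% of 7045 WMI genes were. Lower at that size were Nkx2-2 and Tcf7l2 in Control, where 11.8% of genes were, and Nkx2-2, Tcf7l2 and Zfp488 in WMI, where 21.3% were. When early pre-OL-like cells were counted as OPC-like, St18 in mature OL-like cells was under 2-fold, at log2 ratios of 0.67 in Control and 0.79 in WMI. The median factor differed by 1.21 and 1.80 on the log2 scale between pre-OL-like and OPC-like cells of Control and WMI, and the median of all genes by -0.04 and -0.02. Stages were made by clustering the same cells, so these counts describe the stages and test nothing.

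Clustering the lineage cells again split the stages and showed where within them the factors stood. OPC-like cells formed a main sub-cluster (245 Control and 198 WMI cells), a WMI-rich one (61 and 244) and a dividing one with Top2a (36 and 52). Pre-OL-like cells formed 3 sub-clusters, called early (65 and 223), middle (65 and 197) and late (19 and 20) by the summed level of mature OL markers, which was 1024, 2433 and 6776 CPM. This is an order of marker levels and not of time. The early sub-cluster met the level for 8 of 12 pre-OL markers, but its summed OPC markers (11587 CPM) were near those of the main OPC-like one (12348), as were those of the middle one (11432), so the border between the stages is a choice. Mature OL-like cells formed 1 sub-cluster. The sub-clusters also differed in depth and mitochondrial share. In WMI the median was 5649.5 UMIs and 0.514% mitochondrial in the main OPC-like one, against 3280 and 1.199% in the WMI-rich one. It was 4000 UMIs and 0.939% in the early pre-OL-like one, against 5848 and 0.614% in the middle one. The part of depth and mitochondrial share in the split was not tested.

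Across these sub-clusters the factors peaked at different places in both libraries. Nkx2-2 was highest in early pre-OL-like cells, at 122 in Control and 209 in WMI, stood at 46.3 and 156 in the middle ones, and had no UMI in the late ones, where 0 counts allow up to 20.5 and 20.2. Sox8 was also highest in early pre-OL-like cells, at 122 and 112, with 65.8 and 79.6 in the middle ones. Zfp488 was highest in the middle ones, at 58.5 and 62.0, with 9.18 from 3 UMIs in Control and 37.4 in WMI in the early ones. In the late ones it had 34.2 and 40.3, from 5 and 6 UMIs. Its log2 ratio of late to middle cells had intervals across 0 (-2.52 to 0.65 in Control and -2.11 to 0.57 in WMI). Tcf7l2 went from 493 and 846 in early to 2477 and 2187 in middle and 4489 and 4713 in late pre-OL-like cells, and was 25.3-fold and 10.8-fold lower in mature OL-like cells. Sox10 too was highest in the late sub-cluster, at 438 and 383, and 2.06-fold and 1.97-fold lower in mature cells. St18 went through 682 and 1007, 2285 and 2380, and 3079 and 3066 to its mature level, the highest of all. Myrf went through 61.2 and 76.8, 156 and 140, and 171 and 255. In dividing OPC-like cells Sox10 had 96.2 and 92.2 and Olig1 had 21.9 and 23.1, from 5 and 7 UMIs.

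**Figure D3:**
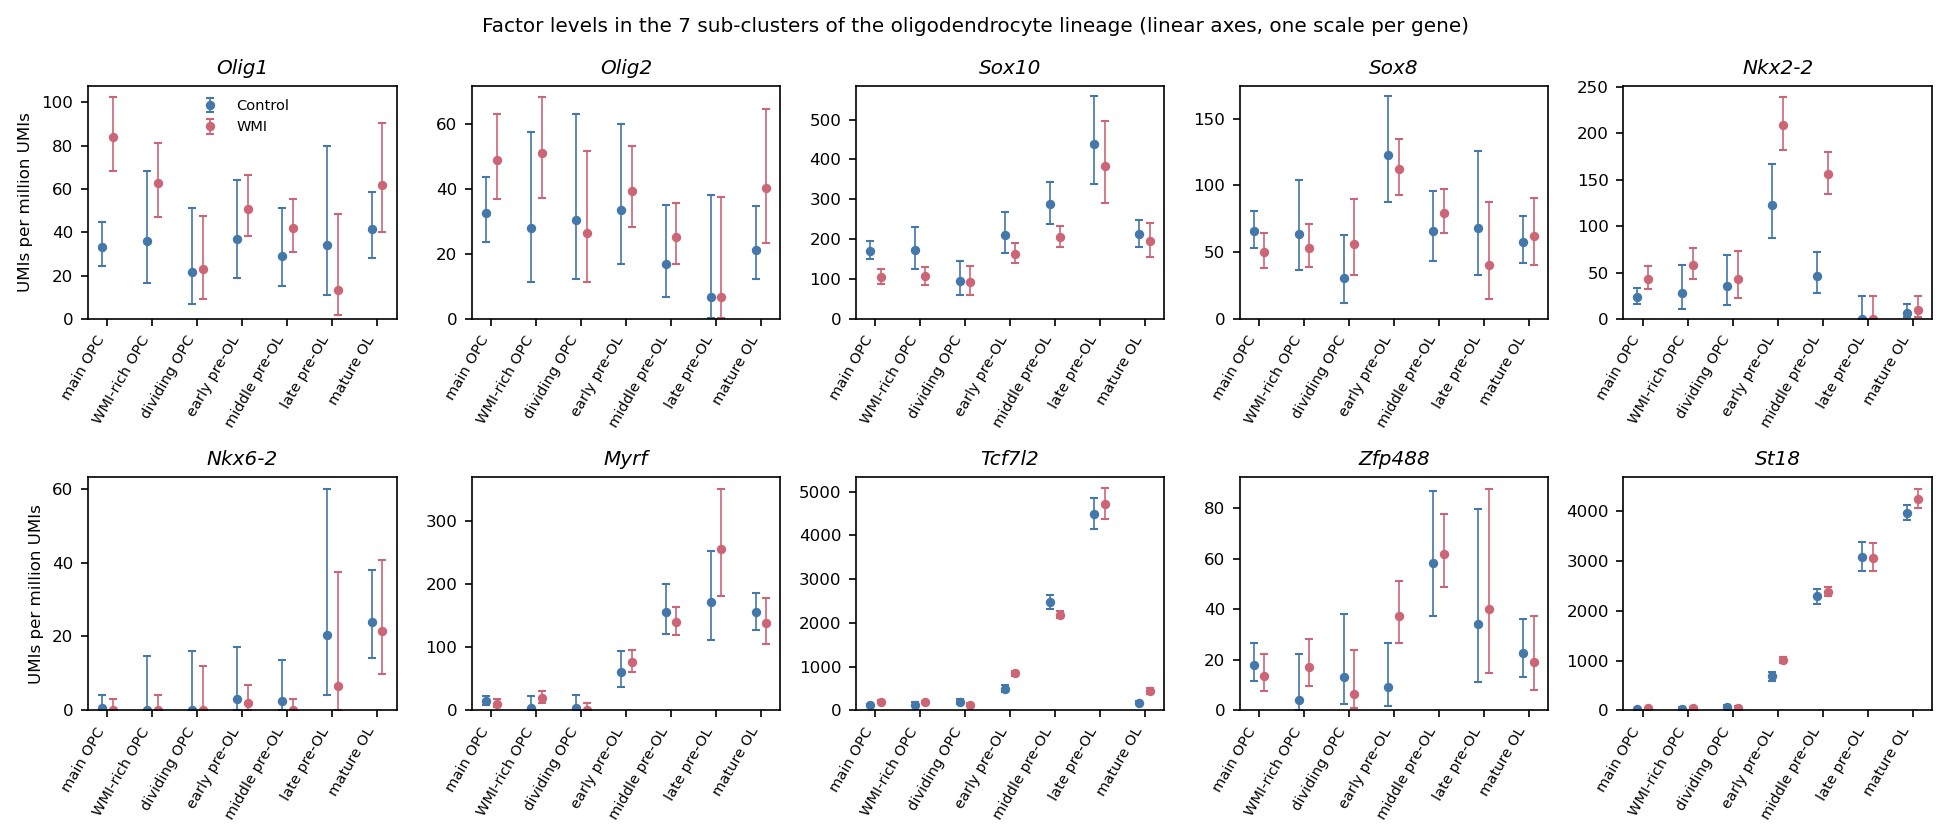
Levels of each factor (CPM, linear axis from 0, a scale per gene) in the 7 sub-clusters of the OL lineage, with Control and WMI side by side and exact Poisson 95% intervals. Nkx2-2 and Sox8 peak in early and Tcf7l2 and Sox10 in late pre-OL-like cells, while St18 is highest in mature OL-like cells of both libraries. Zfp488 has its top level in middle pre-OL-like cells, not set apart from late ones, which hold 5 and 6 of its UMIs.

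The comparison of libraries asks how the factors stood in each stage after WMI. In OPC-like cells 9 factors had at least 50 UMIs. Olig1 and Nkx2-2 were at least 1.5-fold higher in WMI, where 7.88% of 8777 genes were, and Sox10 was at least 1.5-fold lower, where 4.22% were. Olig1, at 32.3 and 68.1, was 2.11-fold higher, a log2 ratio of 1.07 (0.64 to 1.53). Nkx2-2, at 25.9 and 48.5, was 1.88-fold higher, or 0.91 (0.41 to 1.43). Sox10, at 162 and 104, was 1.56-fold lower, or -0.64 (-0.89 to -0.39). St18 at 1.48-fold, Olig2 at 1.47-fold and Tcf7l2 at 1.38-fold lay just under the limit, with intervals above 0. Sox8 (-0.24, -0.62 to 0.14), Myrf (0.06, -0.79 to 0.93) and Zfp488 (-0.15, -0.92 to 0.62) had intervals across 0. The median factor differed by 0.47, the median gene by 0.04.

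The OPC-like ratios of Olig1, Nkx2-2 and Sox10 had the same sign in both large sub-clusters. Those sub-clusters come from the same libraries and differ in depth and mitochondrial share, so the shared sign is no independent check. Olig1 gave 1.33 (0.81 to 1.87) in the main and 0.80 (-0.23 to 2.00) in the WMI-rich one, Nkx2-2 0.84 (0.18 to 1.52) and 1.05 (-0.10 to 2.44), and Sox10 -0.71 (-1.04 to -0.39) and -0.69 (-1.22 to -0.13). In dividing OPC-like cells they were 0.08 (-1.80 to 2.08), 0.29 (-1.09 to 1.77) and -0.06 (-0.92 to 0.81). The median mitochondrial share was 0.0769% in Control and 0.815% in WMI OPC-like cells, and with only cells of at most 1% the ratios were 0.97 for Olig1, 0.86 for Nkx2-2 and -0.65 for Sox10. The Sox10 call ended, at -0.53, when the sub-clusters of a stage were given equal weight, and at -0.47 when early pre-OL-like cells were counted as OPC-like. With doublets kept, Olig2, Tcf7l2 and St18 joined the factors at least 1.5-fold higher, and St18 moved from 0.57 to 1.47. The share of all genes past 1.5-fold with doublets kept is not given, so whether the factors moved apart from all genes is not shown.

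Of 9 factors with at least 50 UMIs in pre-OL-like cells, Nkx2-2 alone was at least 1.5-fold higher in WMI, where 10.1% of 7628 genes were, and none was lower at that size, where 5.96% were. Its levels of 66.8 and 169 gave 2.54-fold, or 1.34 (0.95 to 1.76). Within the early sub-cluster the ratio was 0.77 (0.28 to 1.30) and within the middle one 1.75 (1.07 to 2.52). Of thinned pre-OL-like cells 6.04% (2.80 to 11.2) in Control and 12.7% (9.76 to 16.2) in WMI held an Nkx2-2 UMI, and without thinning 28.9% and 45.2%. Nkx2-2os went from 117 to 92.3, or -0.34 (-0.68 to 0.01). Zfp488, in the early sub-cluster, had 3 Control and 39 WMI UMIs, or 2.03 (0.37 to 4.37), fewer than the 50 required for a call.

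The other factors differed less in pre-OL-like cells. Sox10, at 284 and 198, was 1.44-fold lower, or -0.52 (-0.75 to -0.29), and past 1.5-fold, at -0.65, when each cell had the same weight. With only cells free of Xist UMIs the Sox10 ratio was -0.19 in pre-OL-like cells, but -0.87 in OPC-like and -0.56 in mature OL-like cells. Tcf7l2, at 2076 and 1758, gave -0.24 (-0.32 to -0.16) over all pre-OL-like cells but 0.78 (0.54 to 1.03) in the early, -0.18 (-0.28 to -0.07) in the middle and 0.07 (-0.09 to 0.23) in the late sub-cluster. With equal weight of these sub-clusters it was 0.05. St18, at 1824 and 1823, gave an interval of -0.08 to 0.08 overall and 0.56 (0.35 to 0.78) in the early sub-cluster. Olig1 (0.42, -0.18 to 1.07), Olig2 (0.49, -0.26 to 1.30), Sox8 (0.07, -0.31 to 0.46), Myrf (-0.05, -0.37 to 0.29) and Zfp488 (0.46, -0.11 to 1.07) had intervals across 0. The median factor differed by 0.07 and the median gene by 0.05.

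In mature OL-like cells 6 factors had at least 50 UMIs, from only 43 WMI cells. Tcf7l2 was 2.45-fold higher in WMI, at 178 and 435, or 1.29 (0.96 to 1.63), and was the only one past 1.5-fold, where 6.57% of 3564 genes were. None was lower at that size, where 15.0% were. Olig1 at 41.4 and 61.7 gave 0.58 (-0.23 to 1.38). Sox10 (-0.12, -0.53 to 0.27), Sox8 (0.11, -0.66 to 0.84) and Myrf (-0.17, -0.65 to 0.30) had intervals across 0, and St18 gave 0.10 (0.01 to 0.18). The summed pre-OL markers in these cells were 3650 CPM in Control and 6116 in WMI, and the mature OL markers 13521 and 16117, so both sets of markers were higher in WMI together with Tcf7l2, and their part in it was not tested. The plot of ratios sets all 3 stages side by side.

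**Figure D4:**
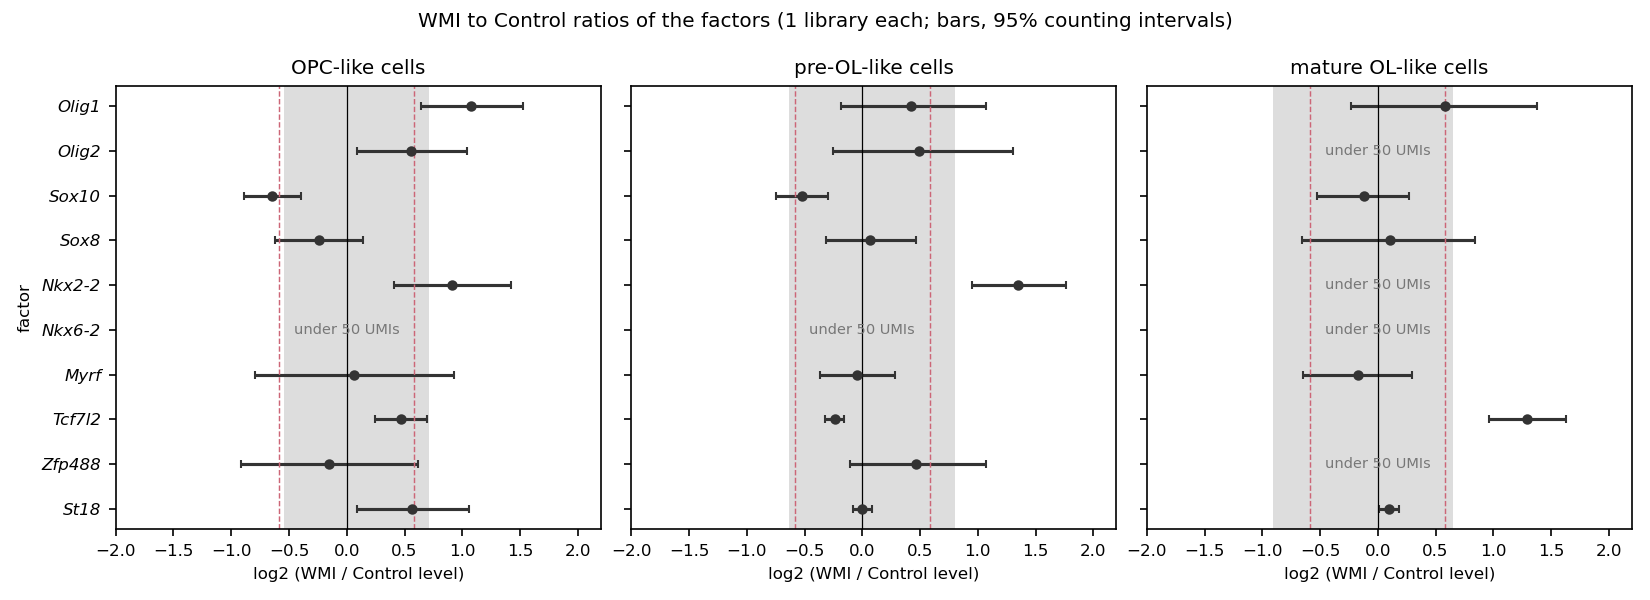
Log2 ratio of the WMI to the Control level for each factor in OPC-like, pre-OL-like and mature OL-like cells, with exact conditional binomial 95% intervals from counts (1 library each). Grey bands hold the middle 90% of all genes compared, dashed lines mark 1.5-fold, and Nkx2-2 in pre-OL-like cells (1.34) and Tcf7l2 in mature OL-like cells (1.29) lie outside the band with their whole intervals.

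Outside the lineage some of these ratios recurred. Nkx2-2 was at 0.85 in Control and 3.24 in WMI excitatory neuron-like cells, a log2 ratio of 1.93 (1.26 to 2.65). It was at 4.06 and 16.7 in unnamed clusters and at 8.60 and 13.7 in astrocyte-like cells, the last with an interval across 0 (-0.10 to 1.48). Microglia-like, inhibitory neuron-like and other neuron-like cells also had more Nkx2-2 in WMI, with intervals across 0. Neuroblast-like cells held 0 Control and 6 WMI UMIs of it. Fibroblast-like cells held 0 and 8, with a lower limit of the log2 ratio of 0.40. No class compared outside the lineage had less Nkx2-2 in WMI. Over all kept cells outside the lineage, which mix classes, its level was 1.95 in Control and 5.04 in WMI. Olig1 gave 0.51 (0.20 to 0.83) in excitatory neuron-like cells, 0.81 (0.13 to 1.52) in astrocyte-like cells and 0.73 (0.40 to 1.05) in unnamed clusters. In microglia-like, fibroblast-like, neuroblast-like, inhibitory neuron-like and other neuron-like cells its interval crossed 0. The 3 unnamed clusters held 2380 Control and 210 WMI, 1177 and 37, and 55 and 980 cells. Pooled over the libraries, Olig1 stood at 22.0, 41.8 and 42.6 CPM in them. For either factor, the unnamed clusters therefore set a different mix of clusters side by side, not the same cells in both libraries. Olig2 in excitatory neuron-like cells was at 1.90 and 3.97, or 1.06 (0.57 to 1.56), and Tcf7l2 at 8.64 and 18.9, or 1.13 (0.90 to 1.36). Sox10, lower in WMI OPC-like cells, was higher in WMI excitatory neuron-like cells, at 2.35 and 4.44, or 0.92 (0.47 to 1.38). Subtracting the neuronal level from each stage left Olig1 (1.17), Nkx2-2 (0.86) and Sox10 (-0.69) past 1.5-fold in OPC-like cells, added St18 (0.72), and left Nkx2-2 (1.33) in pre-OL-like cells. The share of all genes past 1.5-fold after this subtraction is not given. Those neurons had median depths of 9806 and 9692.5 UMIs, against 4935 and 4339 in OPC-like cells. Their level may therefore be too low a measure of free RNA in OPC-like cells. In the shallower unnamed clusters, at 2816 and 2012 UMIs, Olig1 stood at 25.9 and 42.9. The part of free RNA in these ratios was not tested.

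Tcf7l2 also had UMIs in several classes outside the lineage. It had 254 in Control and 312 in WMI astrocyte-like cells, 186 and 180 in microglia-like cells, 362 and 277 in fibroblast-like cells and 220 and 170 in endothelial-like cells, the last from 20 and 13 UMIs. Thinned shares of cells were 21.5% and 27.6% of astrocyte-like and 17.2% and 13.8% of microglia-like cells, beside 12.6% and 17.6% of OPC-like cells. Sox8 had 32.4 and 21.7 in astrocyte-like cells against 6.67 and 7.34 in excitatory neuron-like cells. St18 had 186 and 80.1 in neuroblast-like cells, from 53 and 59 UMIs. For Sox10 the highest of 30 clusters outside the lineage was an unnamed one at 39.2, and the median was 5.29. The median over those clusters was 0.969 for Zfp488 and 2.92 for Myrf.

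The number of factors seen in a cell differed between stages. After thinning to 1000 UMIs an OPC-like cell held a UMI of 0.474 factors on average in Control and 0.520 in WMI, a pre-OL-like cell 1.95 and 1.95, and a mature OL-like cell 1.62 and 1.67. At least 3 factors were seen in 30.9% of Control and 29.8% of WMI pre-OL-like cells and in 0.585% and 0.810% of OPC-like cells. Astrocyte-like cells held 0.334 and 0.395 on average and excitatory neuron-like cells 0.0492 and 0.0900. Tcf7l2 and St18 were found together in 48.3% and 48.4% of pre-OL-like cells, against 42.7% and 42.8% from the product of their shares. That product is over the whole stage, whose sub-clusters differ in both shares. For Tcf7l2 and St18 in Control they were 41.5% and 38.5% in early and 87.7% and 76.9% in middle cells. Pooling such sub-clusters can by itself put the joint share above the product, so the gap does not measure pairing within cells. Olig1 and Olig2, neighbours on chromosome 16, were found together in 0 of 149 Control and 1 of 440 WMI pre-OL-like cells, where the product of shares gives 0.144% and 0.226%, so that their pairing was not measurable at this depth. With 2000 UMIs per cell, 55.8% and 57.7% of pre-OL-like cells held at least 3 factors.

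**Figure D5:**
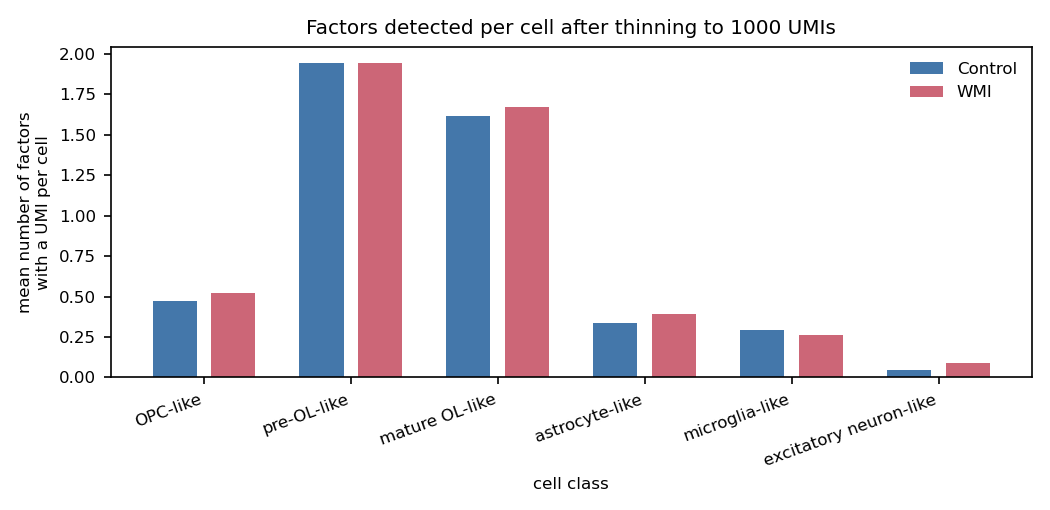
Mean number of the 10 factors with at least 1 UMI per cell after thinning each cell to 1000 UMIs (bars from 0), by cell class, in the Control and WMI libraries. Pre-OL-like cells hold the most, 1.95 in both, and excitatory neuron-like cells 0.0492 and 0.0900.

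Over all 34 clusters, both libraries pooled, the genes whose log2(CPM + 10) followed each factor most closely were found among genes with at least 200 UMIs. The clusters share libraries and depth, so the correlations are descriptions. Tcf7l2 was followed by Itpr2, an endoplasmic calcium channel (Pearson r = 0.97), Elf1 (0.94) and Gab1 (0.94). St18 was followed by 9630013A20Rik (0.95) and Rnf122 (0.94). Sox10 was followed by Gm10863 (0.96), Ugt8a, an enzyme of myelin lipid synthesis (0.95), and Pllp (0.95). Myrf was followed by Bfsp2 (0.95), Rinl (0.95) and Plxnb3 (0.94), and Nkx2-2 by Arhgap35 (0.91), Neu4 (0.91) and A930009A15Rik (0.90). Olig1 was followed by Gatm (0.88), Olig2 (0.87) and Gpr17 (0.86), and Olig2 by Pllp (0.88), Sox10 (0.88) and Olig1 (0.87). Sox8 was followed by Sox10 (0.84), Col9a3 (0.82) and Chst3 (0.82), and Zfp488 by Mroh3 (0.93), Chst3 (0.93) and Gm10863 (0.92). Nkx6-2 had too few UMIs. With a pseudocount of 1 all 3 names held for Tcf7l2 and none for Nkx2-2.

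Other regulators were read beside the factors. Of 9 that hold back differentiation, 8 could be compared in OPC-like cells and 5 in pre-OL-like cells. Sox11, a SoxC factor, was at least 1.5-fold higher in WMI OPC-like cells (43.6 and 74.9, 0.78) and its relative Sox4 in WMI pre-OL-like cells (35.1 and 84.3, 1.26), and none was lower. Sox6, a SoxD factor that delays differentiation, gave 0.36 and 0.50 in these stages, Sox5 0.02 and 0.16, Hes1 -0.30 in OPC-like cells and Sox2 0.08 in pre-OL-like cells. The median of this list was 0.22 and 0.35. Over all genes compared, 7.88% were at least 1.5-fold higher and 4.22% lower in WMI OPC-like cells. In pre-OL-like cells these shares were 10.1% and 5.96%, so a single call in a list this short says little about the list. Of 14 other regulators of the lineage, 10 and 8 could be compared. Sox9 was at least 1.5-fold higher (10.2 and 15.7 from 19 and 37 UMIs, 0.62, with an interval across 0) and Klf9 lower (-0.70) in WMI OPC-like cells, with Etv5 at 0.45 and Zfp24 at -0.54. Zfp536, a zinc-finger repressor, was lower in WMI pre-OL-like cells (403 and 245, -0.72), with Klf9 at -0.33, Zeb2 at 0.32 and Zfp24 at 0.51. The medians were -0.04 and 0.12.

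Partner proteins and relatives were read in the same way. The shares of all genes beside them were 7.88% higher and 4.22% lower in OPC-like cells, and 10.1% and 5.96% in pre-OL-like cells. Of the 3 E proteins, which pair with Olig factors, Tcf3 was past 1.5-fold in OPC-like cells on 23 and 45 UMIs (0.63, -0.13 to 1.42), Tcf12 gave 0.43 and Tcf4 0.02, and in pre-OL-like cells Tcf12 gave 0.28 and Tcf4 0.16. Medians were 0.43 and 0.22. Of 13 relatives of the factors 4 and 3 could be compared, with medians of 0.17 and -0.08. Sox9 was the only one past 1.5-fold in OPC-like cells, with Tcf7l1 at 0.27, Myt1 at 0.08 and Myt1l at -0.26, and none was in pre-OL-like cells, where Myt1 gave 0.50, Myt1l -0.08 and Tcf7l1 -0.38. All 6 chromatin partners could be compared, with medians of 0.23 and 0.05. None was past 1.5-fold in OPC-like cells, with Hdac2 at 0.45, Hdac1 at 0.43, Chd8 at 0.04 and Smarca4 at -0.01. Hdac1, a histone deacetylase, was higher in WMI pre-OL-like cells (41.9 and 65.4, 0.64), with Chd8 at 0.46, Hdac2 at -0.16 and Ep400 at -0.40. In mature OL-like cells 2 of 3 regulators that hold back differentiation were at least 1.5-fold higher in WMI, and none of 6 other regulators, 2 E proteins, 2 relatives or 5 chromatin partners was past it in either direction, where 6.57% of all genes were higher and 15.0% lower.

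The myelin genes that Myrf and Sox10 are known to activate gave a list of 16, of which 9 could be compared in OPC-like and 10 in pre-OL-like cells. None was at least 1.5-fold higher in WMI in either stage, where 7.88% of all genes were in OPC-like and 10.1% in pre-OL-like cells. With 9 and 10 genes compared, none higher is near these shares. Lower at that size were 4.22% and 5.96% of all genes. Mobp, a structural protein of myelin, was lower in both, at 31.3 and 12.3 in OPC-like cells (-1.34) and at 212 and 60.4 in pre-OL-like cells (-1.81, -2.13 to -1.49). Mag, an adhesion protein of myelin, was lower in pre-OL-like cells (315 and 183, -0.78) and gave -0.34 in OPC-like cells. The highest ratios were 0.31 for Fa2h and 0.29 for Mbp in OPC-like cells and 0.31 for Ugt8a and 0.16 for Cnp in pre-OL-like cells. The list's medians were 0.07 and -0.19. Myrf itself gave 0.06 and -0.05 in the same cells. Between stages 9 of 9 myelin genes in Control and 10 of 11 in WMI were at least 2-fold higher in pre-OL-like than in OPC-like cells, and 12 of 14 in each library were higher in mature OL-like than in pre-OL-like cells. Over all genes 6.80% and 5.98% were higher at the first step and 10.6% and 8.39% at the second, in Control and WMI. Part of this list marks the mature OL-like class, so those stage counts are no independent evidence. In mature OL-like cells 3 of 15 were at least 1.5-fold higher and 1 lower in WMI, against 6.57% and 15.0% of all genes, with a median of 0.07.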

How the data were processed

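The data were counts of UMIs per gene and barcode for 1 Control and 1 WMI library, whole numbers deposited as raw output of Cell Ranger 6.1.1, without normalization by the authors. The labels name Seurat and mm9. Use of intronic reads is not given in the sources used here. Kept barcodes had at least 1000 UMIs and 500 genes and at most 10% mitochondrial UMIs. Those below these limits (748 and 241) and predicted doublets (785 and 542, at 0.8% per 1000 barcodes) were left out. Cells were integrated with Seurat 5.3.0 in R 4.3.3 (2000 features, 30 dimensions, resolution 0.8), without the factors, the other regulators (the myelin list was kept) and cell-cycle genes. Lineage cells were clustered again. Of 34 clusters 3 stayed unnamed. Names came from 18 marker lists. Outside neurons, 4 or more markers and 40% of a list had to reach 25% of the highest cluster and stand log2 2 above the median cluster, and the list with the most markers won. Neuronal names took 60% of a list at the first limit. These thresholds were set after clusters had been seen. The results of the microglia and astrocyte lists in lineage cells are in the report.

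Levels were summed UMIs per 1000000 (CPM) with exact Poisson intervals, shares had Clopper-Pearson intervals and ratios conditional binomial intervals, all 95%, with Python 3.11.15, numpy 2.4.6, scipy 1.17.1, pandas 2.3.3 and scikit-learn 1.9.0. Intervals cover counting error only, not mice. For 0 UMIs the limit of 3 was used. Comparisons took genes with at least 50 UMIs and were counted past 1.5-fold between libraries and 2-fold between stages. No test was run, since 1 library per group gives no replicates. The interval of a ratio was tested on simulated counts. The genes named were the 10 factors, those that overlap them, the 3 most like each (1 of them is not reported here), and in each of 6 lists the 2 highest and the 2 lowest ratios in the earlier 2 stages. The factors and lists were chosen with earlier results of these data known.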

Additional observations from a re-analysis of the deposited data

How the results depend on the processing

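No paired analysis was possible because each group has 1 library. Of 666 log2 ratios recomputed under 14 alternatives, 626 stayed within their counting intervals. Of the 626, 24 came from the limit of at least 20 UMIs, which admits genes but leaves a ratio unchanged, so they could not fall outside. The other alternatives use cells of the same libraries, so the count is no independent check. The counts of factors moved as follows, and the causes were not tested unless stated. The share of all genes past the same limits is not set beside these counts. Whether the factors moved apart from all genes is therefore not shown. In WMI OPC-like cells 5 in place of 2 factors were at least 1.5-fold higher with doublets kept and when the early pre-OL-like cells were counted as OPC-like, and 0 in place of 1 was lower in that last case and with equal weight of sub-clusters. In WMI pre-OL-like cells 1 in place of 0 was lower by the mean over cells. In WMI mature OL-like cells 2 in place of 1 were higher with doublets kept, scaling by the median ratio, the mean over cells, the neuronal level subtracted, and at least 20 UMIs, which admits more genes. Counting early pre-OL-like cells as OPC-like also gave 1 in place of 0 factors 2-fold lower in Control pre-OL-like cells, 0 in place of 1 higher in mature OL-like cells of each library and 1 in place of 2 lower in Control. Under it the Control Nkx2-2 ratio of pre-OL-like to OPC-like cells reversed, from 1.37 to -0.24, since the cells with the most Nkx2-2 changed sides. This alternative, equal sub-cluster weights and leaving out the WMI-rich sub-cluster were chosen after seeing the data. Thinning to 2000 UMIs raised the mean number of factors per pre-OL-like cell to 2.59 in Control and 2.81 in WMI. Depth limits Nkx6-2, Zfp488 and Olig2 most.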
